A study of Mus musculus with 12 samples.

Results

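The genes described here are 40 genes that drive the cell division cycle and copy DNA, chosen by symbol from the 53392 genes in the deposited tables. All 40 had a row, and all 40 passed the filter on low counts in every comparison below. They were set out in 8 groups by role: 9 genes of G1 entry and Rb-E2F control, 3 of cyclin E and Cdk2, 8 of origin licensing, 4 of DNA synthesis, 7 mitotic cyclins and kinases, 3 of the spindle checkpoint and mitotic exit, 5 mitotic motor, kinetochore and chromosome genes, and Mki67, the gene of the proliferation marker Ki-67.

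RNA was sequenced from the upper face of mouse embryos on the 129S4 background, in 4 groups of 3 libraries described as biological replicates. Palatal shelf mesenchyme at embryonic day E13.5 came from Pdgfra+/+ embryos (wild-type) and from embryos homozygous for the PI3K allele of Pdgfra, a knock-in at the locus of the receptor PDGFRα that is known for removing its binding sites for PI3K. Maxillary process mesenchyme at E11.5, from the facial swellings that later form the palatal shelves, came from Srsf3 fl/fl;Wnt1-Cre+/+ embryos, which lack the Cre transgene (control), and from Srsf3 fl/fl;Wnt1-Cre+/Tg embryos, which carry it (labelled cKO). Both E11.5 groups therefore carry the floxed Srsf3 alleles, and Wnt1-Cre acts in the neural crest, so that blood, vessels and surface cells of that tissue keep Srsf3. The labels state that the covering ectoderm was digested away with trypsin in all groups, and they do not say how many embryos went into a library.

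Cells enter the cycle when D-type cyclins with Cdk4 or Cdk6 phosphorylate Rb and release E2F factors, which switch on genes for DNA replication. Cdc6 and Cdt1 then load the MCM helicase onto origins, ribonucleotide reductase supplies nucleotides, and the mitotic cyclins, Plk1 and the Aurora kinases drive chromosome segregation. In the embryonic face, neural crest mesenchyme is known to divide rapidly as the facial swellings grow out and to slow as it begins to differentiate. Genes of S phase are known for E2F sites near their starts, and genes of G2 and mitosis for CCAAT boxes and for the cell cycle genes homology region (CHR), an element bound by the MuvB complex.

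The stretches below show those elements upstream of members whose transcripts fell most clearly between the stages. They come from RefSeq promoter windows (build GRCm38.p6), which run from 250 bases before to 50 bases after an annotated start and were found for 33 of the 40 members. Each is written 5′ to 3′ on the gene's strand, stays outside annotated exons, and has in capitals the letters searched on both strands: the CCAAT box, the CHR letters TTTGAA, and the E2F letters TTTCCCGC or TTTGGCGC. A hit on the other strand appears as the reverse complement. No hits of different motifs shared a base in the members' windows. The first set holds the members with the smallest p between the stages in the control libraries that had a hit there.
Bub1, chr2:127831887-127831937, minus strand: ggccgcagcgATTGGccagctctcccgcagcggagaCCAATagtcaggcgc
E2f2, chr4:136180598-136180766, plus strand: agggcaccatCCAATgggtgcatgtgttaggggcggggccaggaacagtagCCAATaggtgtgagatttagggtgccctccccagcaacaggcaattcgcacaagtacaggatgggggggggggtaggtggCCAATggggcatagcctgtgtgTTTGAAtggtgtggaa
Rrm2, chr12:24708194-24708218, plus strand: tcagcggcgtCCAATgggaggcgag
Rrm1, chr7:102441594-102441664, plus strand: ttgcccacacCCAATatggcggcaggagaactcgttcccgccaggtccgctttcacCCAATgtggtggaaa
Cdc20, chr4:118437353-118437406, minus strand: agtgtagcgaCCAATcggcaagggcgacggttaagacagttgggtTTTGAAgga
Plk1, chr7:122159411-122159434, plus strand: atccccgcggCCAATcagcaacgc
Ccnb1, chr13:100786571-100786595, minus strand: acccgcggcgCCAATgggaagagag
Kif11, chr19:37376327-37376378, plus strand: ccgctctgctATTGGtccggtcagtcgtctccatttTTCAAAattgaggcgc

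A second set, added after the values were seen, holds 3 licensing genes with the E2F letters upstream, to set beside the mitotic genes.
Mcm5, chr8:75109350-75109501, plus strand: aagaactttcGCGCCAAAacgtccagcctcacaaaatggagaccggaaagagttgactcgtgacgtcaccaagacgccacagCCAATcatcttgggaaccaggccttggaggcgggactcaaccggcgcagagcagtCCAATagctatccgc
Cdc6, chr11:98908003-98908030, plus strand: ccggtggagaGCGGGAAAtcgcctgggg
Mcm6, chr1:128359706-128359825, minus strand: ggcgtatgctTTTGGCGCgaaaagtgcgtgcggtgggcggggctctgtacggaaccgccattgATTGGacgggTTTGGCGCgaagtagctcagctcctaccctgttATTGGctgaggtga

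The letters are given by role as counts, with no test between roles. The E2F letters were found in the whole windows of 6 of 7 licensing genes, of Cdk2 and of E2f2, and in no window of the DNA synthesis, mitotic, spindle checkpoint or motor genes. They were in 24.2% of the 33 members with a window and in 1.80% of all 27025 genes with one. The CHR letters were in 4 of 5 mitotic cyclin and kinase genes, 2 of 3 spindle checkpoint genes, 4 of 5 motor and kinetochore genes and Mki67, against 1 of 7 licensing, 0 of 4 DNA synthesis, 1 of 6 G1 and 0 of 2 cyclin E and Cdk2 genes. Over the members that is 39.4%, against 20.2% of all genes. CCAAT was in 78.8% of the members and 41.1% of all genes, with 50 to 100% in every role, and 13 members (39.4%) held CCAAT together with the CHR letters, against 7.97% of all genes. The stretch of E2f2 lies at the more downstream of its 2 listed starts. A match is only a run of letters in the window, and no binding was measured. Only these exact letters were searched, so a window without them is not shown to lack a site.

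Palatal shelf libraries held 30.5 to 37.4 M estimated counts and maxillary process libraries 15.9 to 27.9 M, a gap in depth that runs along the stage. Levels below are in CPM, counts relative to a library size scaled by TMM factors over all 12 libraries, and are given in replicate order 1, 2, 3. Srsf3 stood at 621, 595 and 562 CPM in the E11.5 controls and at 478, 694 and 640 CPM in the libraries labelled cKO. The groups overlapped, with a log2 difference of 0.03 ± 0.14 (SE, n = 3 per group, edgeR adjusted p = 0.954), so the gene total does not check the cKO label. A total would not show the loss of some exons where the shortened transcript is still counted, and whether this occurred here was not tested. Directions between the E11.5 groups therefore rest on the labels. Summed over 9 ectoderm markers, the level was 665 to 856 CPM in wild-type and 372 to 905 in PI3K palatal shelves, and 2.04 to 9.73 in control and 10.3 to 22.2 in cKO-labelled maxillary processes. Palatal shelf libraries thus still held ectoderm RNA. The sum over 4 palatal shelf markers was 405 to 774 CPM at E13.5 and 31.4 to 91.1 at E11.5, and that over 7 mesenchyme markers was 7643 to 14860 and 3333 to 6703. The mesenchyme sum was carried by the collagen genes Col1a1 and Col1a2 at E13.5. Between wild-type and control libraries 4 mesenchyme markers were higher and 2, the transcription factor genes Prrx1 (-0.55) and Twist1 (-0.85), were lower.

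**Figure D1:**
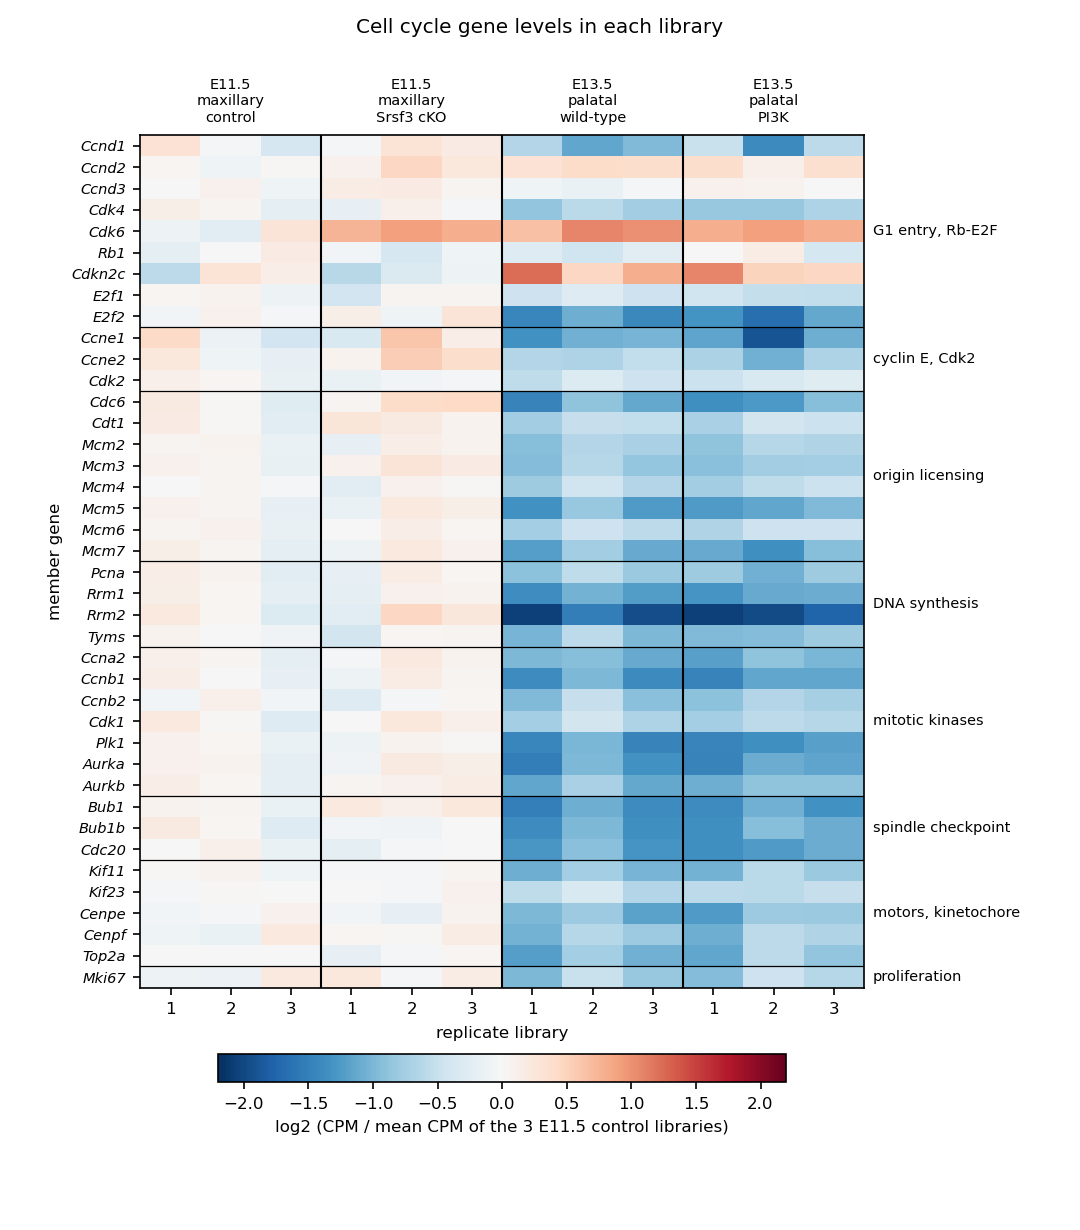
Level of each of the 40 members (rows, by role) in each of the 12 libraries (columns, replicates 1 to 3 of each group), as the log2 of its CPM over the mean CPM of the 3 E11.5 control libraries; blue is lower and red is higher. Most rows are blue in all 6 palatal shelf libraries, while Cdk6 and Cdkn2c are red there and Cdk6 is also red in the 3 libraries labelled cKO.

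Between E11.5 and E13.5 the cell cycle genes fell as a body. Wild-type palatal shelves were set against control maxillary processes, and a gene was called at a false discovery rate (FDR) of 0.05 over all genes tested. Of the 40 members 35 were lower at E13.5 and 3 were higher. Among all 15752 genes tested, 23.4% were lower and 27.1% were higher. The members' median log2 fold change was -0.84, against 0.03 over all genes tested. Their counts made up 0.590 to 0.715% of a wild-type palatal shelf library and 0.963 to 1.05% of a control maxillary library. The summed TPM of the members, a level corrected for transcript length, was 4523 to 5555 at E13.5 and 7024 to 7836 at E11.5. In 36 members all 3 palatal shelf libraries lay below all 3 maxillary libraries (28.7% of all genes), and in 3 they lay above (33.3% of all genes).

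The stage comparison crosses tissues as well as ages: palatal shelf and maxillary process, the floxed Srsf3 alleles, the deposited table and the depth all change together with the day and cannot be told apart from it. In bulk tissue, fewer dividing cells and less RNA per dividing cell cannot be told apart either. Markers of other cells moved too. All 9 ectoderm markers were higher at E13.5, and the summed level of 9 red blood cell markers was 1146 to 2662 CPM in wild-type palatal shelves and 3663 to 6404 CPM in control maxillary processes. Of those 9, 5 were lower, among them the embryonic globin genes Hba-x (-3.88) and Hbb-y (-2.19), and 2 were higher, the adult globin genes Hbb-bs (1.79) and Hbb-bt (1.95). Summed over 6 endothelial markers the level was 376 to 427 and 309 to 317 CPM. Macrophage markers were higher in 5 of 7, and neuron and glia markers were lower in 4 of 6 and higher in 1. Their part in the fall of the members was not tested.

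Among the nucleotide and DNA synthesis genes, Rrm2, the small subunit of ribonucleotide reductase, fell further than any other member. Rrm2 stood at 98.5, 142 and 106 CPM in wild-type palatal shelves and at 474, 422 and 332 CPM in control maxillary processes. Its highest palatal shelf library lay far below its lowest maxillary library, and the log2 fold change was -1.83 ± 0.18 (SE, n = 3 per group, edgeR adjusted p = 0.000349). Rrm1, the large subunit, stood at 193, 240 and 211 CPM against 542, 511 and 430 CPM, a log2 fold change of -1.21 ± 0.13. Tyms, which makes thymidylate, fell by 0.85 and Pcna, the sliding clamp of the replicative polymerases, by 0.76 on the log2 scale. Thus all 4 genes of the group were lower.

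All 8 licensing genes were lower, by 0.59 to 1.15 on the log2 scale. Cdc6, which loads the helicase with Cdt1, stood at 22.3, 33.6 and 28.6 CPM in palatal shelves and at 71.2, 63.3 and 51.8 CPM in maxillary processes. The groups were well apart, with a log2 fold change of -1.15 ± 0.18 (edgeR adjusted p = 0.00177). Mcm5, a subunit of the ring-shaped MCM helicase, went from 390, 382 and 323 CPM at E11.5 to 144, 204 and 155 CPM at E13.5, a log2 fold change of -1.13 ± 0.15. The other subunits of that complex fell as well, and differences in size among them were not tested. Mcm7 fell by 1.02, Mcm3 by 0.81, Mcm2 by 0.76, Mcm4 by 0.62 and Mcm6 by 0.59 on the log2 scale, with standard errors of 0.10 to 0.15. Cdt1 fell by 0.60.

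The mitotic cyclins and kinases were lower in 7 of 7 genes. Plk1, a kinase of mitotic entry and spindle assembly, stood at 69.5, 94.1 and 68.2 CPM in palatal shelves against 202, 193 and 171 CPM in maxillary processes. That is a log2 fold change of -1.29 ± 0.14 (edgeR adjusted p = 0.000474). Aurka, the spindle pole kinase, had a log2 fold change of -1.27 and Aurkb, its counterpart at centromeres and the midzone, one of -0.98. Ccnb1, the cyclin that brings Cdk1 into mitosis, stood at 73.6, 96.8 and 72.2 CPM against 211, 193 and 169 CPM, a log2 fold change of -1.25 ± 0.14. Ccna2, the cyclin of S phase and G2, fell by 1.01, Ccnb2 by 0.79 and Cdk1, the mitotic kinase itself, by 0.61. The 95% interval of Cdk1, -0.95 to -0.27, overlapped those of the cyclins that activate it, and the difference between them was not tested.

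All 3 genes of the spindle checkpoint and mitotic exit were lower. Bub1, a kinase that recruits checkpoint proteins to kinetochores, had the smallest p of all members: it stood at 45.5, 61.3 and 49.9 CPM in palatal shelves and at 137, 134 and 118 CPM in maxillary processes. Its log2 fold change was -1.32 ± 0.12 (edgeR adjusted p = 0.000283). Bub1b, which encodes the checkpoint protein BubR1, had a log2 fold change of -1.23 and Cdc20, the activator of the anaphase-promoting complex, one of -1.17. Of the motor, kinetochore and chromosome genes all 5 were lower. Top2a, the topoisomerase that untangles sister chromatids, stood at 394, 537 and 435 CPM against 915, 902 and 905 CPM. Its log2 fold change was -1.0 ± 0.13 (edgeR adjusted p = 0.000825). The kinetochore motor Cenpe fell by 0.99, the spindle motor Kif11 by 0.95, the kinetochore protein Cenpf by 0.82 and Kif23, a motor of cytokinesis, by 0.51. Mki67 stood at 455, 643 and 508 CPM in palatal shelves and at 836, 825 and 1056 CPM in maxillary processes, a log2 fold change of -0.76 ± 0.16 (edgeR adjusted p = 0.00548).

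Cyclin E genes and their kinase were lower in 3 of 3. Ccne1 stood at 34.0, 41.2 and 42.3 CPM against 115, 78.8 and 64.2 CPM, a log2 fold change of -1.14 ± 0.21 (edgeR adjusted p = 0.00362), with a wide spread among the maxillary libraries. Ccne2 had a log2 fold change of -0.63 and Cdk2 one of -0.45. For Ccne2 the direction depended on the scale. Its mean TPM was 29.0 in wild-type palatal shelves and 27.3 in control maxillary processes. With limma on log2(TPM + 1) its value was 0.08, where the median of all genes was 0.16. The estimated effective length of Ccne2, its count divided by its TPM, was lower at E13.5 by a log2 value of -0.53 (limma adjusted p = 0.114). Ints8, which overlaps Ccne2 on the other strand, had 378% of its count, and the use of strand in the counting is not given in the sources used here.

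The G1 group was the one that split. Ccnd1, the D-type cyclin induced by growth factors, stood at 182, 128 and 145 CPM at E13.5 and at 352, 278 and 219 CPM at E11.5, a log2 fold change of -0.91 ± 0.20 (edgeR adjusted p = 0.00776). Cdk4, the member with the highest level per length at a mean of 1794 TPM in control maxillary processes, fell by 0.75. E2f2, an activating E2F factor, stood at 12.1, 15.6 and 12.3 CPM against 31.5, 34.8 and 32 CPM, a log2 fold change of -1.30 ± 0.13. E2f1, its close relative, had a log2 fold change of -0.41, whose call was lost without wild-type replicate 3 (edgeR adjusted p = 0.0526). Ccnd3 (-0.10 ± 0.09, edgeR adjusted p = 0.365) and Rb1 (-0.32 ± 0.13, edgeR adjusted p = 0.0796) did not pass the threshold. On log2(TPM + 1) the value of Ccnd3 was 0.12, where the median of all genes was 0.16. Rb1, the gene of the retinoblastoma protein, is overlapped on the other strand by Rcbtb2 and Lpar6, and the larger of those counts was 917% of its own.

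The 3 members that rose all belong to G1 control. Cdk6, the second kinase of the D-type cyclins, stood at 82.9, 112 and 106 CPM in wild-type palatal shelves and at 49.4, 45.4 and 65.0 CPM in control maxillary processes. Its log2 fold change was 0.91 ± 0.16 (edgeR adjusted p = 0.00276). Thus Cdk6 and Cdk4, which bind the same cyclins, moved in opposite directions, and per length Cdk4 remained far above Cdk6, at a mean of 1274 against 30.8 TPM at E13.5. Ccnd2 stood at 971, 1031 and 1019 CPM against 809, 736 and 798 CPM, a log2 fold change of 0.36 ± 0.09 (edgeR adjusted p = 0.0151). Cdkn2c, which encodes p18, an inhibitor of Cdk4 and Cdk6, stood at 15.2, 8.88 and 11.3 CPM against 4.34, 8.0 and 7.17 CPM, a log2 fold change of 0.85 ± 0.28 (edgeR adjusted p = 0.0384). Cdk6 was called in 6 of the 6 fits that left out a library. Ccnd2 lost its call without wild-type replicate 3 (edgeR adjusted p = 0.0554) and without control replicate 2 (edgeR adjusted p = 0.0952). Cdkn2c kept its call only without wild-type replicate 2, and without each of the other 5 libraries the edgeR adjusted p was 0.0538 to 0.122.

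**Figure D2:**
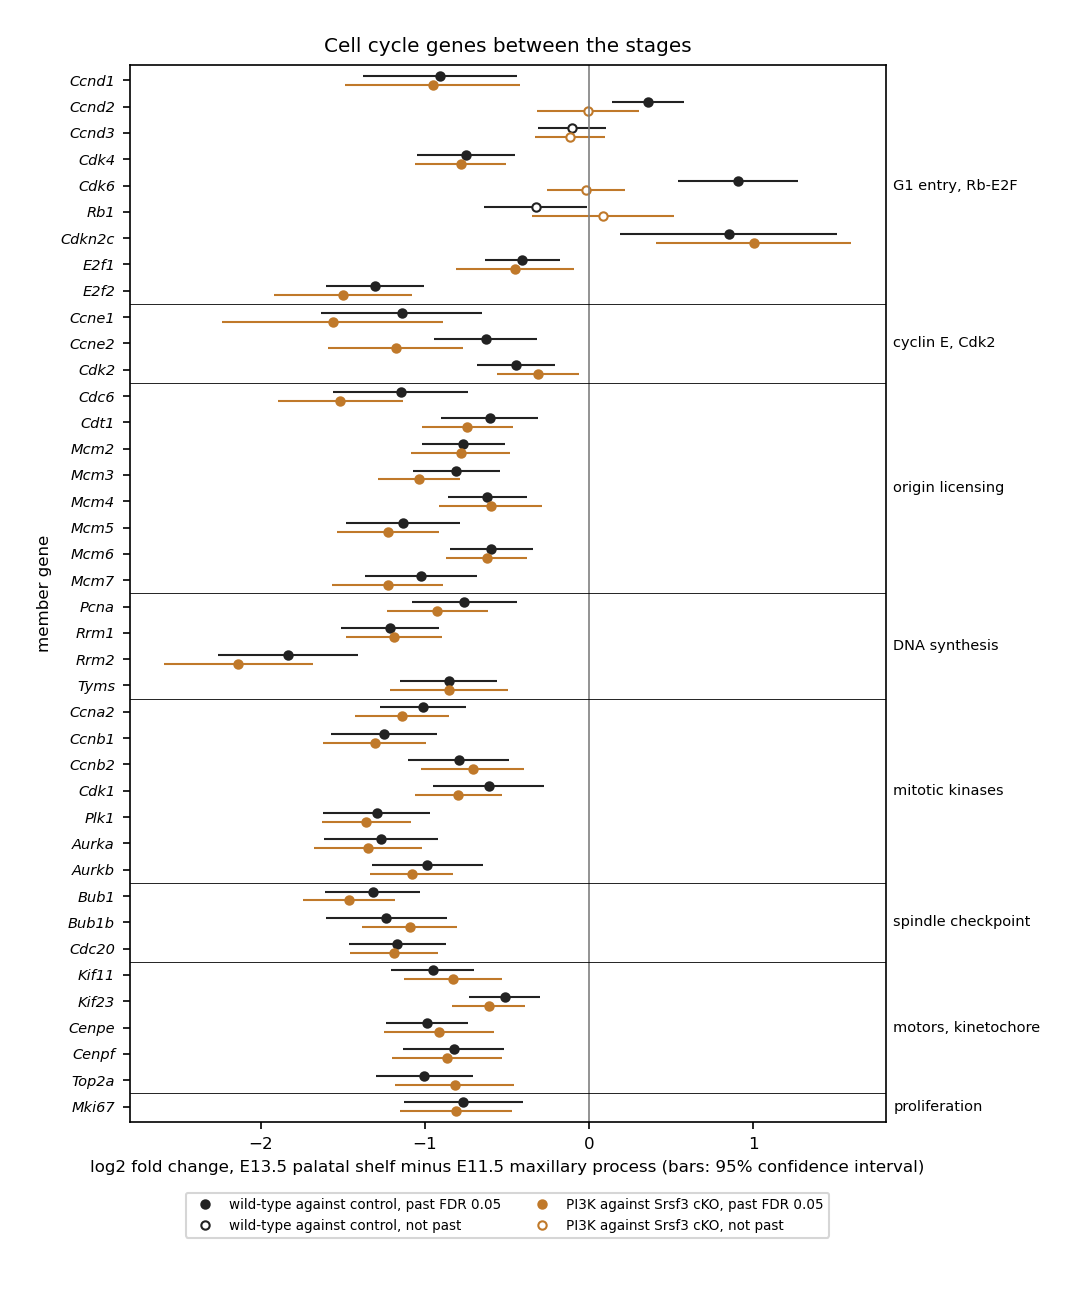
Log2 fold change of each member between E13.5 palatal shelf and E11.5 maxillary process, with its 95% confidence interval (edgeR), for wild-type against control libraries (black) and for PI3K against cKO-labelled libraries (orange); filled points passed FDR 0.05. In both comparisons 35 members lie left of 0 with filled points, and Cdk6 and Ccnd2 are filled right of 0 only for the control libraries.

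The comparison was repeated in libraries that share none with the first, PI3K palatal shelves against maxillary processes labelled cKO. The same 35 members were lower there, and 1, Cdkn2c, was higher. E2f1 and Cdk2 were near the threshold and, of the 6 fits that left out a library, were called only in the one without cKO replicate 1. Among all 15948 genes tested, 19.9% were lower and 23.4% were higher. The members' median log2 fold change was -0.89, against 0.03 over all genes. The groups did not overlap for 35 lower members and 1 higher member (25.9% and 31.3% of all genes). Of the genes lower in controls and tested in both, 69.7% were also lower in mutants, and the reverse share was 81.6%. Rrm2 again fell furthest, from 343, 560 and 488 CPM in the libraries labelled cKO to 98.5, 105 and 121 CPM in PI3K palatal shelves, a log2 fold change of -2.13 ± 0.20 (edgeR adjusted p = 0.00027). Markers of other cells moved here as well, with ectoderm markers higher in 9 of 9, red blood cell markers lower in 7 of 9 and skeletal muscle markers higher in 5 of 6, and their part in the members' values was not tested. Cdc6 had a log2 fold change of -1.51, Bub1 one of -1.46, Plk1 and Aurka one of -1.35 each and Mki67 one of -0.81.

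Cdk6 and Ccnd2 gave no rise in that second comparison. Cdk6 stood at 92.2, 99.5 and 92.2 CPM in PI3K palatal shelves and at 89.6, 99.4 and 92.4 CPM in the libraries labelled cKO, a log2 difference of -0.02 ± 0.10 (edgeR adjusted p = 0.908). Ccnd2 stood at 1027, 846 and 994 CPM against 836, 1066 and 920 CPM, a log2 difference of -0.01 ± 0.13. On log2(TPM + 1) the values were 0.28 for Cdk6 and 0.29 for Ccnd2, where the median of all genes was 0.20. Whether the first and second stage comparisons differed was tested over all 12 libraries, a test added after the values were seen. No genotype was sampled at both stages. The tested value is also the PI3K minus wild-type difference less the cKO minus control difference, so stage and genotype cannot be told apart in it. No member passed the FDR, as against 0.0415% of 16877 genes. At an unadjusted p under 0.05 there were 3 members (8.69% of all genes): Cdk6 with a difference of -0.90 ± 0.20 (edgeR adjusted p = 0.204), Ccne2 with -0.52 and Ccnd2 with -0.34. These differences were therefore not established.

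**Figure D3:**
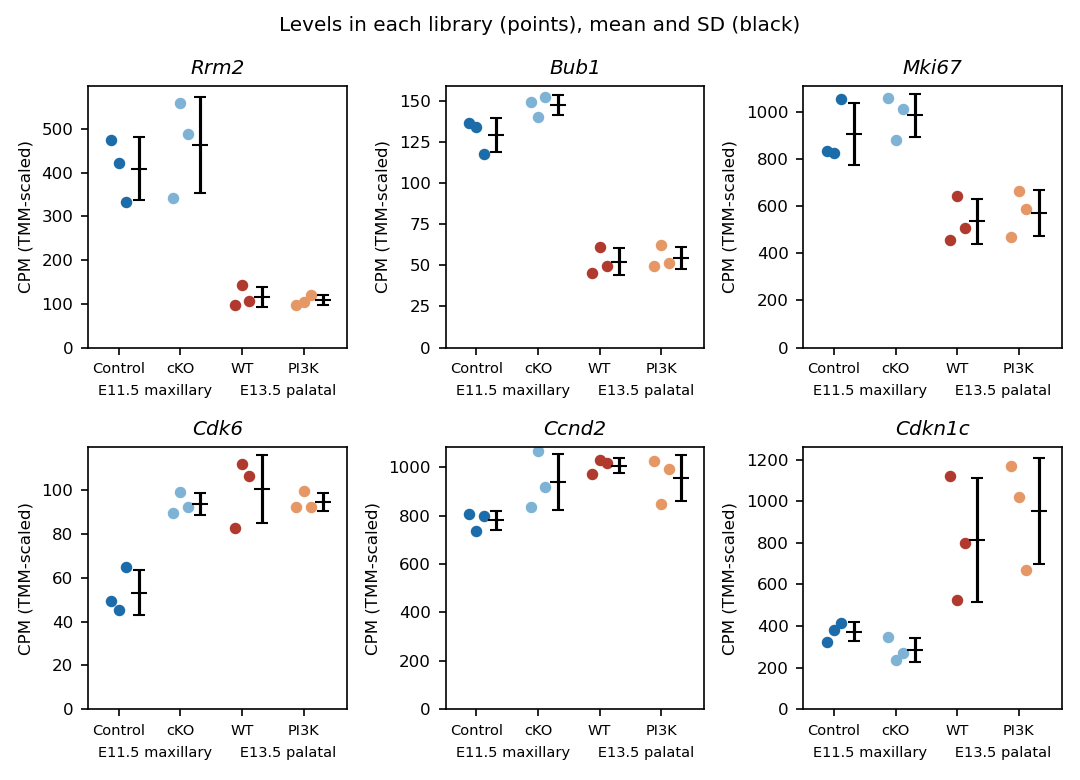
Level in CPM of Rrm2, Bub1, Mki67, Cdk6, Ccnd2 and the CDK inhibitor Cdkn1c in each library (points, 3 per group), with the group mean and SD in black. Rrm2, Bub1 and Mki67 lie lower in all 6 palatal shelf libraries than in any maxillary library, while Cdk6 lies lowest in the 3 control maxillary libraries and Cdkn1c highest in the palatal shelves.

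The other genes of the pathway, 101 in 7 lists, moved with the members in the control libraries. Of the 99 that passed the filter on low counts 88 were lower and 3 were higher, and in the second comparison 85 and 4 of 100. Among all genes tested 23.4% were lower and 27.1% higher in the control libraries, and 19.9% and 23.4% in the second comparison. Replicative polymerase and clamp loader genes were lower in 22 of 22, among them Fen1, the flap endonuclease of lagging strand synthesis (-1.47 ± 0.17). Genes of origin recognition and firing were lower in 16 of 17, led by Mcm10 (-2.0 ± 0.22) and Cdc45 (-1.22). Mcm10, which helps to activate the loaded helicase, stood at 119, 103 and 84.9 CPM at E11.5 and at 20.3, 34.4 and 22.1 CPM at E13.5. Centromere, spindle and cytokinesis genes were lower in 26 of 26, led by the motors Kif18a (-1.39) and Kif2c (-1.37). Genes of mitotic entry and the anaphase-promoting complex were lower in 11 of 13, led by Ccnf (-1.46) and Espl1, the gene of separase (-1.17).

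Most of the other E2F, pocket protein, MuvB, B-Myb and FoxM1 genes were lower as well. Among other E2F and pocket protein genes 8 of 10 were lower, with the repressor E2f7 at -1.02, and 1 was higher. That was Rbl2, which encodes p130, the pocket protein of resting cells: it stood at 37.2, 35.2 and 38.8 CPM in palatal shelves and at 10.2, 14.2 and 18 CPM in maxillary processes, a log2 fold change of 1.38 ± 0.19 (edgeR adjusted p = 0.00107). Of the MuvB, B-Myb and FoxM1 genes 5 of 7 were lower, with Foxm1 at -1.02 and Mybl2 at -1.01. Foxm1 and B-Myb, the product of Mybl2, are known as activators of mitotic genes.

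Of the 4 CDK inhibitor genes that passed the filter 2 were higher, 2 were not called and none was lower, where 27.1% of all genes were higher. Cdkn1a, the gene of the p53 target p21, stood at 35.6, 9.04 and 19.9 CPM in wild-type palatal shelves and at 1.23, 1.37 and 4.03 CPM in control maxillary processes, a log2 fold change of 3.24 ± 0.62 (edgeR adjusted p = 0.00415). Cdkn1c, the gene of p57, stood at 1122, 524 and 799 CPM against 324, 380 and 415 CPM, a log2 fold change of 1.13 ± 0.26 (edgeR adjusted p = 0.00927). Cdkn1b, the gene of p27, did not pass, with a log2 difference of 0.11 ± 0.08. In the second comparison Cdkn1a (2.96 ± 0.46), Cdkn1c (1.71 ± 0.22) and Rbl2 (1.71 ± 0.15) were higher as well. The ectoderm markers given above were higher in the same libraries, and their part in these values was not tested.

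Within the groups many members shared their highest or lowest library. How many of all genes did so was not counted, so this is not shown to be particular to the members. The roles also differed. In PI3K replicate 1 the median log2 deviation from the group mean was 0.11 for cyclin E and Cdk2 and -0.28 for the motor and kinetochore genes. Wild-type palatal shelf replicate 2 was the highest of its group for 34 of the 40 members and replicate 1 the lowest for 28. PI3K replicate 1 was the lowest for 28. Among the controls replicate 3 was the lowest for 30, yet it had the highest Mki67, Cenpe and Cenpf of its group. In the libraries labelled cKO replicate 1 was the lowest for 29 and had the highest Mki67. Mesenchyme markers did not share 1 order: wild-type replicate 1 and PI3K replicate 1 had the highest Col1a1 of their groups, at 7093 and 5355 CPM, and the lowest Prrx1, at 748 and 708 CPM. Summed macrophage markers were highest in replicate 1 of the wild-type, PI3K and cKO-labelled groups, at 80.8, 63.8 and 43.5 CPM. Among the controls they were lowest in replicate 3, at 16.2 CPM. Summed skeletal muscle markers were highest in those replicates too, at 39.3, 154, 9.19 and 1.71 CPM in that order. Endothelial markers were highest in cKO-labelled replicate 1, at 803 CPM, but in wild-type replicate 3, at 427 CPM. The part of these markers in the members' order was not tested.

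In the palatal shelf the PI3K allele gave no detectable change of a cell cycle gene. None of the 40 members passed the FDR, and none of 16525 genes did by edgeR (0% higher and 0% lower), while DESeq2 called 4 genes, no member among them. At an unadjusted p under 0.05 there were 0 members, against 1.53% of all genes higher and 0.611% lower. The members' log2 fold changes ran from -0.20 to 0.27 with a median of 0.01, and 21 of the 40 were positive. Mki67 stood at 468, 663 and 587 CPM in PI3K and at 455, 643 and 508 CPM in wild-type palatal shelves, which overlap, with a log2 difference of 0.10 and a 95% interval of -0.29 to 0.49. The interval was -0.24 to 0.55 for Top2a, -0.40 to 0.16 for Pcna and -0.45 to 0.72 for Ccnd1. For 35 of the 40 members the whole interval lay within 0.5 of 0 on the log2 scale, and for the other 5 the interval reached further. Only Ccnd3 had groups that did not overlap, with 261, 257 and 242 CPM in PI3K against 228, 220 and 237 CPM. Its log2 difference was 0.15 ± 0.08 (edgeR unadjusted p = 0.0789). Among all genes, groups lay apart in either direction in 6.29%. Markers of skeletal muscle ran at a summed 26.8 to 154 CPM in PI3K and 1.73 to 39.3 CPM in wild-type palatal shelves.

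In the maxillary process the libraries labelled cKO were close to the controls in most members. No member passed the FDR, where 8 of 14254 genes were higher (0.0561%) and 4 lower (0.0281%). The members' median log2 fold change was 0.07, with 28 positive and 12 negative values, against 0.0041 over all genes. That median rested on single libraries: it was 0.0064 without control replicate 3, 0.025 without cKO replicate 2, 0.046 without cKO replicate 3 and 0.10 without cKO replicate 1. Mki67 stood at 1061, 882 and 1013 CPM in the libraries labelled cKO and at 836, 825 and 1056 CPM in controls, a log2 difference of 0.12 with a 95% interval of -0.18 to 0.43. Top2a had an interval of -0.26 to 0.15 and Pcna one of -0.28 to 0.33. For 31 of the 40 members the whole interval lay within 0.5 of 0.

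Cdk6 was the member with the largest difference there. It stood at 89.6, 99.4 and 92.4 CPM in the libraries labelled cKO and at 49.4, 45.4 and 65.0 CPM in controls. On this scale every cKO-labelled library lay above every control and near the level of the palatal shelves. The log2 difference was 0.82 ± 0.14 with an unadjusted p of 0.000538, which over all genes gave an edgeR adjusted p of 0.118. In TPM the groups overlapped, at 19.9, 27.8 and 31.8 in the libraries labelled cKO and at 14.7, 16.7 and 21.4 in controls. The call depended on the method. It was past the FDR with DESeq2 (adjusted p = 0.000123), with all 12 libraries in 1 edgeR fit (adjusted p = 0.0277) and without the filter on low counts (adjusted p = 0.0163). Cdk6 did not pass in the other alternatives, limma on log2(TPM + 1) among them. Without each library in turn the edgeR adjusted p ran from 0.0642 to 0.530. Ccnd2 stood at 836, 1066 and 920 CPM against 809, 736 and 798 CPM, a log2 difference of 0.27 ± 0.11 with an unadjusted p of 0.0385 (edgeR adjusted p = 0.388).

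Those 2 members made up the count at an unadjusted p under 0.05, both higher, where 6.34% of all genes were higher and 5.91% lower. Groups did not overlap for 4 members, all higher (Cdk6, Ccnd2, Mcm3 and Bub1), where 8.43% of all genes lay apart upward and 9.75% downward. The upward shares of the members are near the background, while no member lay apart downward or was lower at an unadjusted p under 0.05. Mcm3 had a log2 difference of 0.19, Bub1 one of 0.19, Cdc6 one of 0.31, Ccne2 one of 0.35 and Cdt1 one of 0.19, none past the FDR. The summed level of the 6 endothelial markers was 413 to 803 CPM in the libraries labelled cKO and 309 to 317 CPM in controls, and all 6 were positive with an unadjusted p under 0.05. All 7 mesenchyme markers had negative differences, 2 of them with an unadjusted p under 0.05, as did all 6 neuron and glia markers tested, again 2 of them. All 7 ectoderm markers tested had positive differences, 4 of them with an unadjusted p under 0.05. The part of these cells in the values of Cdk6 and Ccnd2 was not tested.

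**Figure D4:**
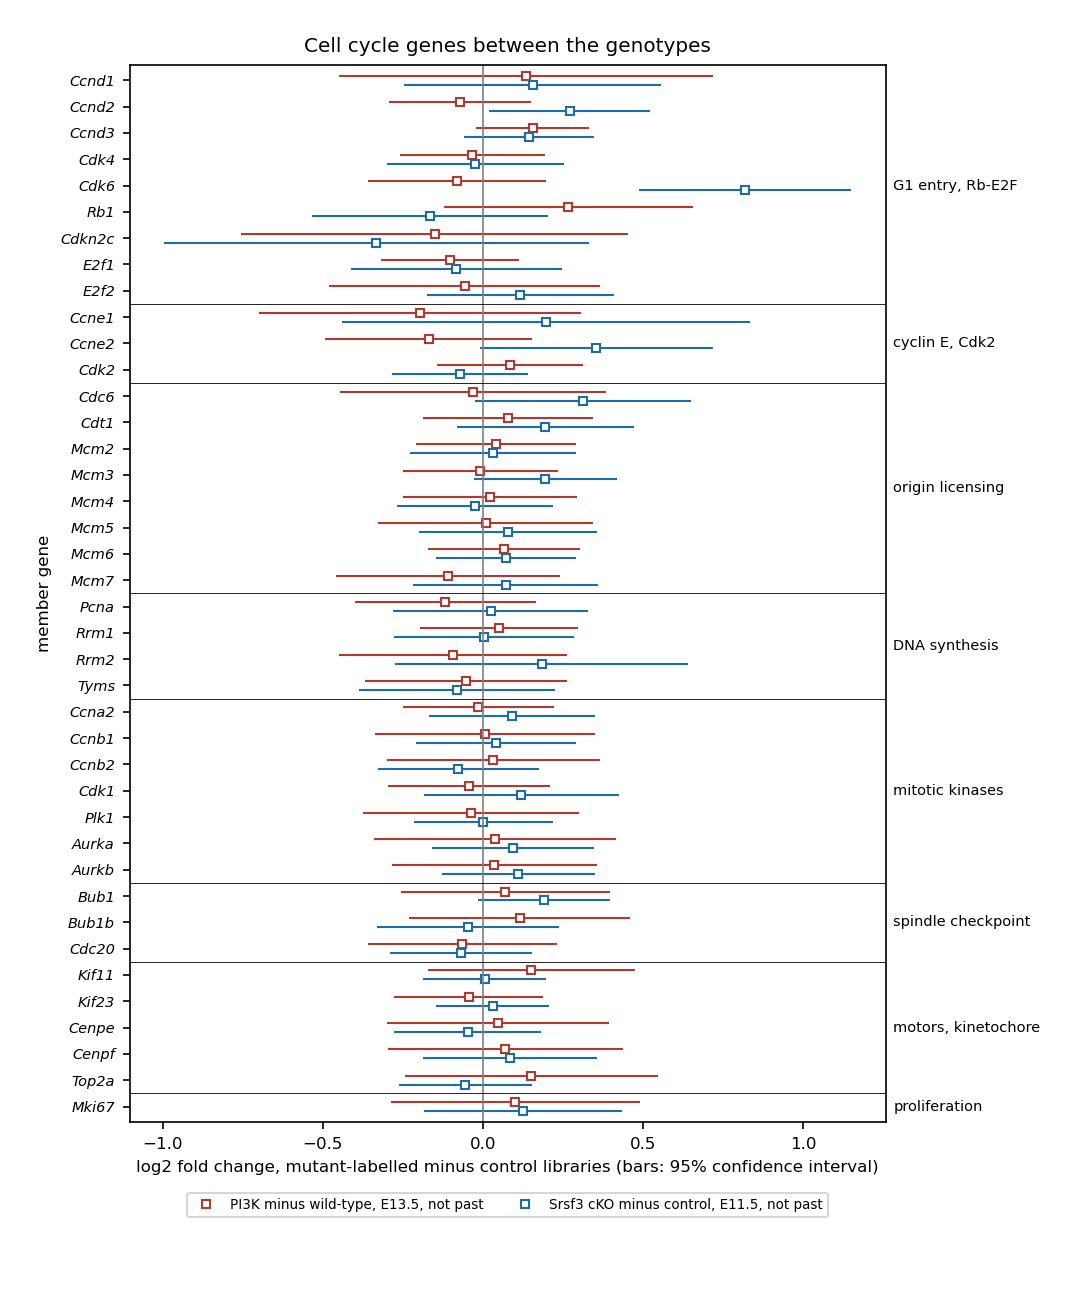
Log2 fold change of each member with its 95% confidence interval (edgeR) for PI3K minus wild-type palatal shelves at E13.5 (red) and for libraries labelled cKO minus control maxillary processes at E11.5 (blue); open squares did not pass FDR 0.05. Every point is open, 40 of the red and 38 of the blue intervals hold 0, and Cdk6 in blue, at 0.82, lies farthest from 0.

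The study concerns splicing, and the deposited values are gene totals, so the mix of transcripts can be seen only indirectly, through the effective length. That length moves when longer or shorter transcripts of a gene gain share. It is also an estimate made per library, and other sources of its movement were not tested. Between the stages in controls 2 members had a changed effective length, both shorter at E13.5, where 8.67% of 11093 genes changed. They were Ccnb1, with log2 values of -0.45, -0.47 and -0.49 in palatal shelves and -0.21, -0.27 and -0.26 in maxillary processes, and Ccna2. Their log2 differences were -0.22 ± 0.02 (limma adjusted p = 0.0223) and -0.14 ± 0.03 (limma adjusted p = 0.042). In the second comparison Ccnb1 (-0.21) and Ccna2 (-0.17) were again shorter, together with Ccnd3 (-0.10), where 7.97% of all genes changed. A share of 2 or 3 in 40 is near that background, and the counts ran from 0 to 2 and from 0 to 3 when each library was left out. Between the genotypes no member changed in effective length, where 0.00775% of genes did in the palatal shelf and 0.00909% in the maxillary process, 1 gene each.

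On log2(TPM + 1) with limma the members' median was -0.67 in controls and -0.64 in mutants, and the median of all genes was higher by 0.13 and 0.18 than in the count fits. On that scale 32 members were lower in controls and 30 in mutants. Over all genes called, 53.7% were higher in controls by the count fit and 69.0% on log2(TPM + 1). Removing each library in turn left 34 to 36 members lower in controls and 33 to 35 in mutants. Other members overlapped by a gene with over 5% of their count were Mcm7, Ccnd3, Cdc20, Cdk4, Ccna2 and Ccnd1. All overlaps given here, those of Ccne2 and Rb1 included, were taken over whole gene spans with their introns. Whether any reads were shared between the overlapping genes was not tested.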

How the data were processed

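Bulk polyA RNA-seq was analysed from 12 mouse libraries in 4 groups of 3. Salmon 1.1.0, STAR 2.7.0, DESeq2 1.28.1 and the build mm10 are named in the submitters' processing notes, without roles. The authors deposited estimated counts per gene, not normalized, and TPM values per gene, in tables of 53392 identifiers; 0 columns lacked a sample. Strand use in the counting is not given in the sources used here. Of the identifiers 53355 matched GENCODE M21 (GRCm38), used here for symbols and overlaps, and no source names the annotation the authors used.

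Estimated counts were rounded and tested with edgeR 4.0.16 (R 4.3.3): filterByExpr, TMM, quasi-likelihood F-test, with p-values adjusted by Benjamini-Hochberg across every gene in the fit and an FDR threshold of 0.05. Each comparison used its own 6 libraries. Standard errors derive from the F statistic, and intervals are 95%. P-values test a group difference against the spread between these libraries, and the number of embryos in a library is not stated. Effective length is the estimated count over TPM, for genes with at least 50 counts, as centred log2 values in limma 3.58.1. The test between the stage comparisons was added after the values were seen. Fits were tested on simulated counts in which few genes changed, evenly up and down. Between the stages many more genes were called, so that test does not cover such a case.

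Alternatives were DESeq2 1.42.0, other scalings and filters, limma on log2(TPM + 1) and log2(TPM + 0.1), all 12 libraries in 1 fit, a replicate block, and each library left out. The members and lists were chosen with earlier results of these data known. Named were all members between the stages. Between the genotypes the rule named Mki67, Top2a, Pcna, the D-type cyclins, called members and up to 6 others by p. From each pathway list it named up to 2 called genes with the largest change, and Cdkn1a, Cdkn1b and Cdkn1c. A gene that this rule names is not reported here. Promoter stretches were taken by smallest p with a motif upstream, up to 3 a role and 8 in all. Depth was 15.9 to 37.4 M estimated counts per library.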

Additional observations from a re-analysis of the deposited data

How the results depend on the processing

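Between the stages, members lower numbered 32 to 36 in controls and 30 to 35 in mutants over the 15 alternatives of each. Members higher in controls fell to 1 with the replicate block and ran from 1 to 3 without each library; in mutants they were 2 on log2(TPM + 1) and 0 to 1 without each library. On log2(TPM + 1) and log2(TPM + 0.1) the members' median was -0.67 and -0.68 in controls and -0.64 and -0.65 in mutants. The median of all genes on those scales was 0.16 and 0.19 in controls and 0.20 and 0.25 in mutants. There Ccnd3 turned to 0.12 (both) in controls and 0.22 (both) in mutants, Ccne2 to 0.076 and 0.079 in controls, and in mutants Ccnd2 to 0.29 (both) and Cdk6 to 0.28 and 0.29. In mutants Ccnd2 also turned to 0.081 and Cdk6 to 0.068 with upper-quartile scaling, to 0.023 and 0.012 both with more than 1 CPM in 3 libraries and with all 12 libraries in 1 fit, and Ccnd2 to 0.0080 without a filter. Without each library in turn, Ccnd2 ran there from -0.10 to 0.097, Cdk6 from -0.068 to 0.032 and Rb1 from -0.033 to 0.21. Members with a changed effective length numbered 0 with the replicate block in both comparisons and 1 in controls with a count minimum of 20; without each library they ran from 0 to 2 in controls and from 0 to 3 in mutants. DESeq2 called 4 genes between PI3K and wild-type. There, without each library in turn, Ccnd1 ran from -0.020 to 0.37, Ccnd2 from -0.11 to 0.0096, Ccne1 from -0.34 to 0.019, Cdkn1a from -0.11 to 0.86, Cdkn1c from -0.0032 to 0.55, Mki67 from -0.016 to 0.26 and Top2a from -0.0020 to 0.30. Between cKO-labelled and control libraries 12 genes were called, against 143 without a filter, 376 with DESeq2, 105 with all 12 libraries, 40 with the replicate block and 2 to 29 without each library (29 without cKO replicate 1). Members higher there were 1, Cdk6, without a filter, with DESeq2 and with all 12 libraries. Pcna was -0.040 on both TPM scales. Without each library in turn Pcna ran from -0.079 to 0.11, Cdkn1b from -0.21 to 0.097 and Top2a from -0.098 to 0.00089. Genes that differed between the first and second stage comparisons numbered 7, and 4 to 26 without each library. For same-numbered libraries, the deviations of all genes from their group means correlated at 0.53, 0.22 and -0.22 (PI3K and wild-type). They correlated at 0.08, 0.11 and 0.23 for cKO and control. The same-numbered library was the best match for 2 of 3 PI3K libraries and for 2 of 3 cKO libraries. These values do not settle whether the numbers pair libraries, and the main fits took them as unpaired. Where no setting's own construction shows it, the cause was not tested.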
